A study of Mus musculus with 2 samples.

Results

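Prostaglandin E2 (PGE2) synthesis and response genes were examined in CD45-negative cells of mouse tumours. The set was chosen by gene name and holds Pla2g4a, Ptgs1, Ptgs2, Ptges, Ptges2, Ptges3, Ptger2, Ptger4, Ptgr1 and Hpgd. Of these 10 genes, 9 are among the 12707 genes of the deposited table, and Hpgd was not analysed here. RNA came from tumours grown from Py8119 cells, a mouse mammary tumour line derived from the MMTV-PyMT model. One group was the tumours of hosts with Mtdh knocked out (KO host), and the other was the tumours of hosts with wild-type Mtdh (WT host). The injected Py8119 cells carried wild-type Mtdh in both groups, so the genotype differs in the host only. The labels do not say how the knockout was made, the age or sex of the mice, or how many tumours went into a library. Live cells negative for CD45, a surface protein of leukocytes, were sorted from dissociated tumours after lysis of red blood cells, so the RNA can hold host stroma (fibroblasts, mural cells, endothelium) besides the injected cells.

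Each group had 1 library, so there is no replicate check, no test was made, and each difference describes this pair of libraries. Recovered depth was 23381820 reads for the KO host and 26069360 reads for the WT host. Mtdh itself was at 23131 reads in the KO host library and 28376 reads in the WT host library. Scaled to library depth, its ratio of KO host over WT host was 0.909. In both libraries the injected cells supply wild-type Mtdh. In bulk RNA from sorted cells, fewer cells of a type and less RNA per cell cannot be told apart.

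PGE2 is made in steps. Cytosolic phospholipase A2 releases arachidonic acid from membranes, a cyclooxygenase turns it into prostaglandin H2, and a terminal synthase turns that into PGE2. PGE2 acts on the receptors EP1 to EP4, of which EP2 and EP4 raise cyclic AMP, and it is cleared by oxidation and then reduction. In tumours, COX-2 and PGE2 are known for dampening immune responses and for promoting vessel growth.

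The promoters of Ptgs2 and Ptgs1 are shown because these genes encode the inducible and the constitutive cyclooxygenase, and that of Ptger4 because it had the largest ratio between the libraries among the set. The sequences are RefSeq windows on GRCm38.p6, from 250 bases before to 50 bases after the start site, given 5′ to 3′ on the strand of the gene. GRCm38.p6 is not the build of the deposited table. Capitals mark matches, on either strand, to a CRE core (TGACG), an E-box (CACGTG), a C/EBP palindrome (TTGCGCAA), a GC box (GGGCGG) or a TATA box (TATAAA).
Ptgs2, chr1:150099781-150100080, plus strand: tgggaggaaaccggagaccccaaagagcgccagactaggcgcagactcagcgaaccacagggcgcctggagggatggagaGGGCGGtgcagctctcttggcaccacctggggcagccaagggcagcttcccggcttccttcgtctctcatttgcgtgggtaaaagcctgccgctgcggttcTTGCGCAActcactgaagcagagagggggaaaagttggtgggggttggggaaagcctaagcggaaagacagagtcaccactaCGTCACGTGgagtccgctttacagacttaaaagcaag
Ptgs1, chr2:36230176-36230475, plus strand: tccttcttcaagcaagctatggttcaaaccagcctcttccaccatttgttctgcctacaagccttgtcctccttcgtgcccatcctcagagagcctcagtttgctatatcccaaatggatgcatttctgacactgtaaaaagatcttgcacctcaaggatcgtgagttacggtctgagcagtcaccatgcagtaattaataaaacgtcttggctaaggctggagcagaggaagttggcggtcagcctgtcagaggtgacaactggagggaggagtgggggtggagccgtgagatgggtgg
Ptger4, chr15:5244138-5244437, minus strand: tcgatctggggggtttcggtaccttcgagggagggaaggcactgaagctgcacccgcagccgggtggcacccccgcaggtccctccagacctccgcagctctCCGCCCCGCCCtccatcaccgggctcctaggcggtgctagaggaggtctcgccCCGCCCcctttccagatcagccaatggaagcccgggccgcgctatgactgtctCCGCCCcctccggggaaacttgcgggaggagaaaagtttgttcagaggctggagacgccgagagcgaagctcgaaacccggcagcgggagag
The Ptgs2 window held 4 matches. These were a GC box at -170 to -165 from the start site, the C/EBP palindrome at -69 to -62, and a CRE core at 14 to 18 that overlaps an E-box at 17 to 22. Among 32851 promoter windows of the same length, 0.183% held the C/EBP palindrome, 20.8% the CRE core, 7.15% the E-box and 35.7% the GC box. The TATA box letters were in 13.6% of the windows. The Ptgs1 window held 0 matches, and the Ptger4 window held 4 GC boxes, of which 2 overlap each other. A match is a description of letters and not a site.

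The 3′ end of the Ptgs2 mRNA holds AU-rich elements, the class of sequence bound by the decay factor ZFP36 and the stabilising factor ELAVL1. The 30 bases of the 3′ UTR with the most ATTTA pentamers are given from the GENCODE M21 transcript, where they begin 16 bases after the stop codon at base 2024 of 4453, with the pentamers in capitals.
Ptgs2 3′ UTR: ATTTATTTATTTAtgtgaagaATTTAattt
This window held 4 pentamers, some of them overlapping, and 0.505% of 20378 genes had as many in any 30 bases of their 3′ UTR. The whole 3′ UTR of Ptgs2, 2445 bases long, held 14 pentamers, against 0 in the 921 bases of Ptgs1.

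Levels are given as RPM, reads per 1000000 reads of the library, from reads recovered out of the deposited values. All 9 genes came out as whole reads in both libraries, within 0.1 read. The deposited log2(FPKM + 1) values use the genomic span of a gene, introns included, so most of the set lies where the added 1 hides a difference. Of the 9 genes, 2 (Ptgs2 and Ptges3) had a mean deposited log2 value of 1 or more, and 0 of these differed by 1 or more. Over all genes with such a mean, 2.31% were higher in the KO host by 1 or more and 2.64% were lower. By reads, 8 of the 9 had 100 or more over both libraries, and a gene was then counted when its RPM differed 2-fold or more. Ptgs1 was 2-fold higher, Ptges2 and Ptger4 were 2-fold lower, and 5 lay between. Over all genes counted this way, 8.4% were 2-fold higher and 11.3% were 2-fold lower. Of the 8, 5 had 100 to under 1000 reads, among them Ptgs1, Ptges2 and Ptger4. In that range 17.5% of all genes were 2-fold higher and 23.4% were 2-fold lower. The median log2 ratio of the 8 genes was 0.09, against -0.06 over all 10652 genes.

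**Figure D1:**
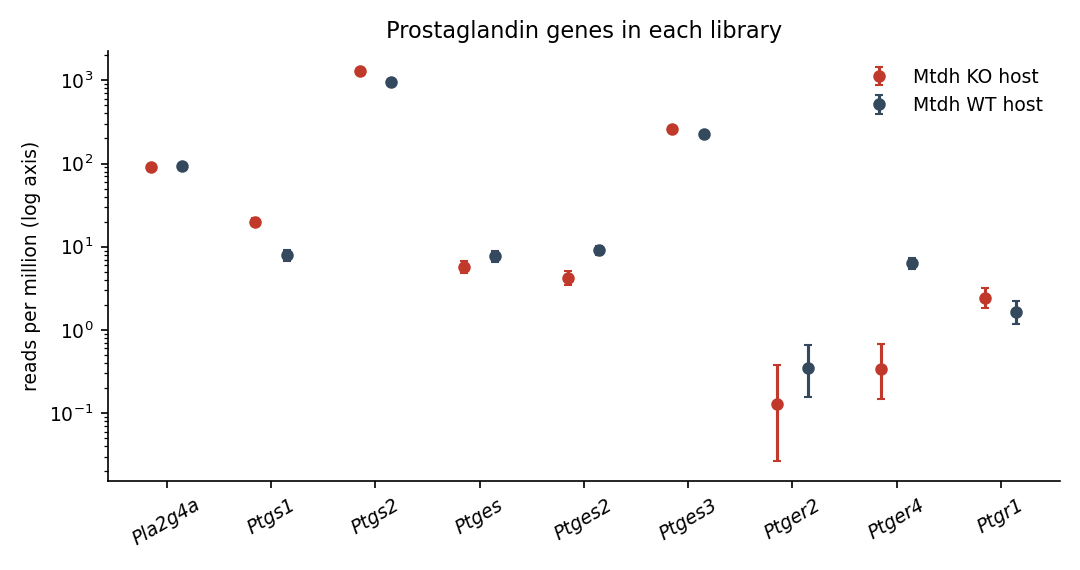
RPM of the 9 genes, on a log axis, with the KO host library to the left of the WT host library for each gene, and bars for the 95% Poisson counting interval. Ptgs2 and Ptges3 are the highest in both libraries, and the points of Ptger4 are the farthest apart.

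Pla2g4a encodes cytosolic phospholipase A2, the enzyme that releases arachidonic acid (ENSMUSG00000056220, mm39 chromosome 1, 149705369 to 149837042, minus strand). It had 91.4 RPM (2138 reads) in the KO host library and 94.5 RPM (2464 reads) in the WT host library. The ratio was 0.967 (95% counting interval 0.913 to 1.03), so a difference beyond counting error was not detectable. Its deposited log2 difference was -0.02. Among the 5476 genes with 1000 to under 10000 reads, 3.03% were 2-fold higher and 4.58% were 2-fold lower. Pla2g4a and Ptgs2 lie near each other on chromosome 1, on opposite strands.

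Ptgs2, which encodes the inducible cyclooxygenase COX-2, was the most abundant of the set (ENSMUSG00000032487, mm39 chromosome 1, 149975782 to 149983979, plus strand). It had 1305 RPM (30521 reads) in the KO host library and 959 RPM (25003 reads) in the WT host library. By reads it ranked 56 in the KO host library and 98 in the WT host library among the 12707 genes. The ratio was 1.36 (95% counting interval 1.34 to 1.38), higher in the KO host and under the 2-fold rule. On the deposited scale the FPKM values were 159 in the KO host and 117 in the WT host, a log2 difference of 0.44. The log2 read ratio of Ptgs2 was also 0.44, and among the 1137 genes with 10000 or more reads the quartiles were -0.18 and 0.19. In that depth range 1.93% of genes were 2-fold higher and 0.704% were 2-fold lower.

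Ptgs2 is itself an immediate early gene, and the median of a list of immediate early genes lay on the same side. Of its 24 genes 23 were listed, and 5 were 2-fold higher, 1 was 2-fold lower and 17 lay between. By depth, 9 of them had 1000 to under 10000 reads, where 3.03% of all genes were 2-fold higher and 4.58% 2-fold lower. The other 14 had 10000 or more, where 1.93% of all genes were 2-fold higher and 0.704% 2-fold lower. The median log2 ratio was 0.38, and the list summed to 15226 RPM in the KO host and 11805 RPM in the WT host. Fosb, an AP-1 subunit, was 1.75-fold higher in the KO host, and Fos, another, had 49350 reads in the KO host and 62131 reads in the WT host. These genes also respond to tissue dissociation, and the part of that in the Ptgs2 difference was not tested.

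Ptgs1, which encodes the constitutive cyclooxygenase COX-1, was the only gene of the set that was 2-fold higher in the KO host (ENSMUSG00000047250, mm39 chromosome 2, 36120438 to 36142285, plus strand). It had 20.1 RPM (469 reads) in the KO host library and 7.86 RPM (205 reads) in the WT host library. The ratio was 2.55 (95% counting interval 2.16 to 3.02). On the deposited scale this was FPKM 0.918 in the KO host and 0.360 in the WT host, a log2 difference of 0.50. Among the 4039 genes with 100 to under 1000 reads, 17.5% were 2-fold or more higher in the KO host.

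Ptgs1 is a gene of platelets, macrophages and mast cells as well, so markers of these cells are given beside it. Platelet genes, of which 4 of 9 were listed, summed to 3.58 RPM in the KO host and 8.74 RPM in the WT host. Their 2 members with the most reads were Gp1bb, with 17.7 reads in the KO host and 127 reads in the WT host (not whole), and Itga2b, with 53 reads in the KO host and 25 reads in the WT host. Macrophage and monocyte genes, all 12 of them listed and 0 at 0 reads, summed to 232 RPM in the KO host and 196 RPM in the WT host. Of the 9 with 100 or more reads, 2 were 2-fold higher and 0 were 2-fold lower. Of these 9, 7 had 100 to under 1000 reads, where 17.5% of all genes were 2-fold higher and 23.4% 2-fold lower. The other 2, Lyz2 and Mpeg1, had 1000 to under 10000 reads, where these shares were 3.03% and 4.58%. Mpeg1 was 1 of the 2 genes that were 2-fold higher. Lyz2, a lysozyme, had 3471 reads in the KO host and 3504 reads in the WT host (RPM ratio 1.10). Mpeg1, a pore-forming protein of phagocytes, had 952 reads in the KO host and 378 reads in the WT host (RPM ratio 2.81). Of 10 mast cell and basophil genes, Kit alone was listed, at 58 reads in the KO host and at 0 in the WT host. Pan-leukocyte genes, of which 9 of 10 were listed, summed to 25.5 RPM in the KO host and 23.4 RPM in the WT host. Of the 6 with 100 or more reads, 1 was 2-fold higher and 0 were 2-fold lower. All 6 had 100 to under 1000 reads, where the same shares of 17.5% and 23.4% hold. Ptprc, which encodes CD45 itself, had 64.0 reads in the KO host and 46.0 reads in the WT host, and Fcer1g, the 2-fold higher gene, had 70.0 reads in the KO host and 31 reads in the WT host, both named after their values were seen. The list also held Lcp1, with 197 reads in the KO host and 232 reads in the WT host (RPM ratio 0.947). Cd53, of the same list, had 85 reads in the KO host and 90 reads in the WT host (RPM ratio 1.05). Neutrophil genes, of which 4 of 8 were listed, summed to 80.1 RPM in the KO host and 114 RPM in the WT host. Most of this sum was Mmp9, a matrix protease, at 73.7 RPM (1723 reads) in the KO host and 104 RPM (2715 reads) in the WT host. Cxcr2, a chemokine receptor, had 117 reads in the KO host and 224 reads in the WT host. The other listed genes, Csf3r and S100a8, named after their values were seen, had 37.5 and 38 reads over both libraries. Their log2 ratios were 0.21 and -0.46. The CD45 gate would remove most leukocytes. The part of these cells in the Ptgs1 difference was not tested.

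Per kilobase of exon, COX-2 RNA exceeded COX-1 RNA in both libraries. Exon lengths were taken from GENCODE M21 (4.58 kb for Ptgs2 and 3.88 kb for Ptgs1). The level of Ptgs2 was 285 RPM per exon kb in the KO host and 209 in the WT host, and that of Ptgs1 was 5.16 in the KO host and 2.02 in the WT host. The level of Ptgs2 over that of Ptgs1 was therefore 55.2 in the KO host and 103 in the WT host. Ptgs1 made up 1.78% of the sum of both isozymes in the KO host and 0.958% in the WT host.

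**Figure D2:**
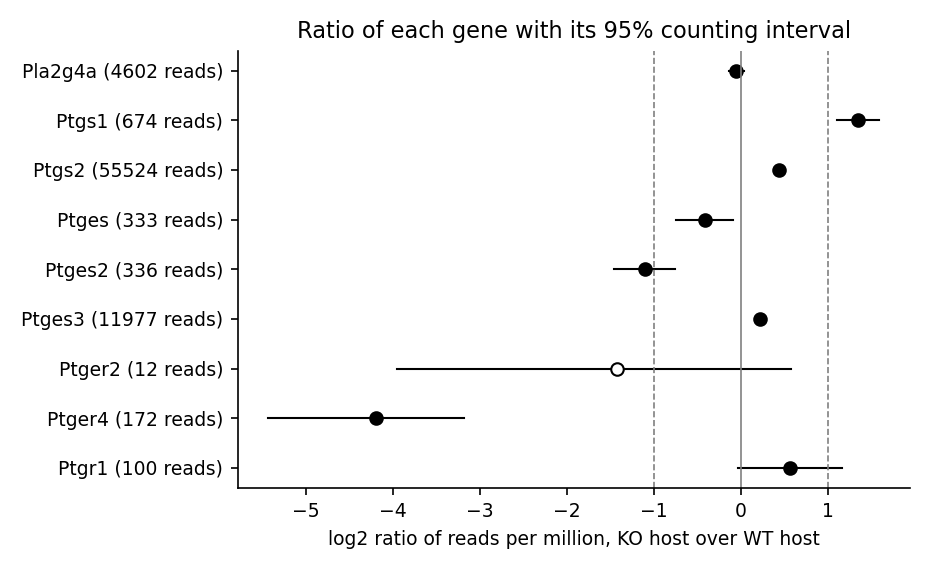
Log2 ratio of RPM, KO host over WT host, for each of the 9 genes in order of their role, with bars for the 95% counting interval, dashed lines at 2-fold and the reads over both libraries beside each name. Ptgs1 lies beyond the right dashed line and Ptges2 and Ptger4 beyond the left one, and the open point is Ptger2, which had 12 reads.

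The terminal PGE2 synthases lay on both sides of equality. Ptges encodes the inducible microsomal synthase that is known to work with COX-2 (ENSMUSG00000050737, mm39 chromosome 2, 30779483 to 30819876, minus strand). It had 5.73 RPM (134 reads) in the KO host library and 7.63 RPM (199 reads) in the WT host library. The ratio was 0.751 (95% counting interval 0.599 to 0.939), lower in the KO host and under the 2-fold rule. Its deposited log2 difference was -0.06.

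Ptges2 encodes a second, membrane-associated synthase (ENSMUSG00000026820, mm39 chromosome 2, 32285908 to 32295785, plus strand). It had 4.23 RPM (99 reads) in the KO host library and 9.09 RPM (237 reads) in the WT host library. It was 2.15-fold lower in the KO host (95% counting interval 1.69 to 2.74), with a deposited log2 difference of -0.43. The lower end of that interval lies under 2-fold, and 23.4% of genes with 100 to under 1000 reads were 2-fold lower.

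Ptges3 encodes p23, described both as the cytosolic PGE2 synthase and as a co-chaperone of HSP90 (ENSMUSG00000071072, mm39 chromosome 10, 127894823 to 127913142, plus strand). It had 262 RPM (6137 reads) in the KO host library and 224 RPM (5840 reads) in the WT host library. The ratio was 1.17 (95% counting interval 1.13 to 1.21), and the deposited log2 difference was 0.21. Its log2 read ratio of 0.23 lies just above the upper quartile of 0.19 at that depth. Per exon kb, Ptges3 made up 98.1% of the sum of the 3 synthases in the KO host and 96.4% in the WT host. GENCODE M21 lists a processed pseudogene of Ptges3, and how reads shared with it were counted is not given in the sources used here.

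Receptor RNA was low. Ptger4, which encodes the EP4 receptor, had the largest ratio of the set (ENSMUSG00000039942, mm39 chromosome 15, 5236142 to 5273669, minus strand). It had 0.342 RPM (8 reads) in the KO host library and 6.29 RPM (164 reads) in the WT host library. It was 18.4-fold lower in the KO host (95% counting interval 9.11 to 43.3). The deposited log2 difference was only -0.21, since its FPKM was 0.00912 in the KO host and 0.168 in the WT host. Among the 1441 genes with 100 to under 300 reads, a range and a fold chosen after the Ptger4 value was seen, 9.09% were 8-fold or more lower in the KO host. Ttc33 overlaps Ptger4 on the other strand in the deposited table, and is named for that overlap. It was at 4499 reads in the KO host and 4201 reads in the WT host, a ratio of 1.19. How the counting treated strand is not given in the sources used here.

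Ptger2, which encodes the EP2 receptor, was close to the limit of the table (ENSMUSG00000037759, mm39 chromosome 14, 45225652 to 45241278, plus strand). It had 0.128 RPM (3 reads) in the KO host library and 0.345 RPM (9 reads) in the WT host library. The ratio was 0.372 with a 95% counting interval of 0.0647 to 1.49, so no difference was detectable at this depth.

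Ptgr1 encodes prostaglandin reductase 1, which acts after the oxidation step in the breakdown of prostaglandins and also on leukotriene B4 (ENSMUSG00000028378, mm39 chromosome 4, 58965439 to 58987120, minus strand). It had 2.44 RPM (57 reads) in the KO host library and 1.65 RPM (43 reads) in the WT host library. The ratio was 1.48 (95% counting interval 0.977 to 2.25), which includes equal levels. With 100 reads in all it sits on the read minimum.

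**Figure D3:**
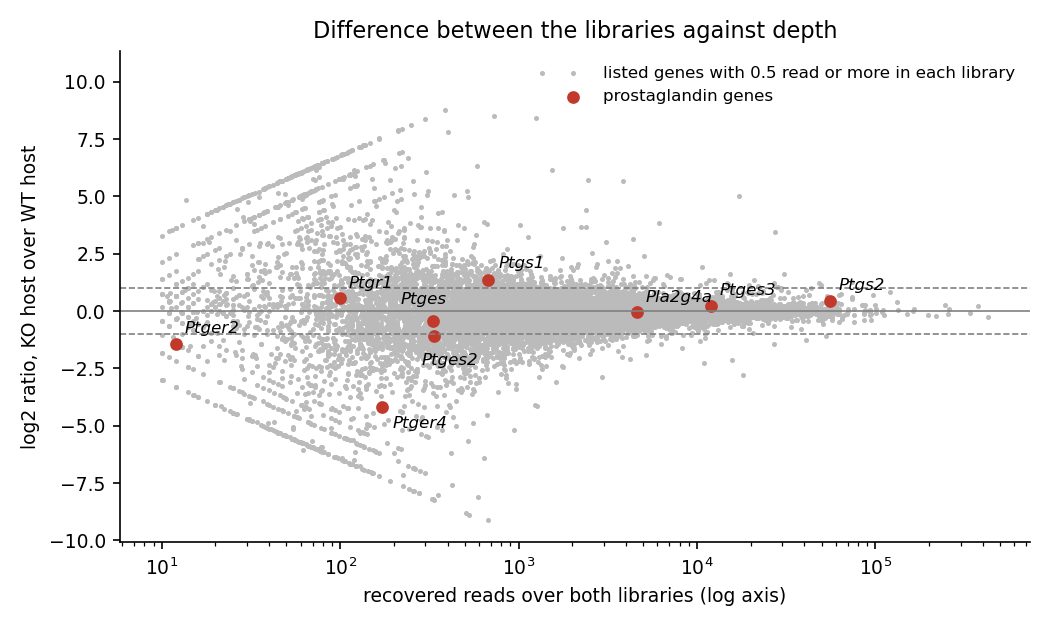
Log2 ratio of RPM, KO host over WT host, against recovered reads over both libraries on a log axis, for listed genes with 0.5 read or more in each library (grey) and the 9 prostaglandin genes (red), with dashed lines at 2-fold. The grey cloud widens to the left, where Ptger4, Ptges2 and Ptgs1 lie, and is narrow at the depth of Ptgs2 and Ptges3.

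Ordered per exon kb, the set ran from Ptgs2 through Ptges3, Pla2g4a and Ptgs1 in both libraries, and these 4 levels did not overlap in their counting intervals. In the KO host they were 285, 118, 14.3 and 5.16 RPM per exon kb. In the WT host they were 209, 101, 14.8 and 2.02 RPM per exon kb. Below them in the KO host came Ptges at 1.46, Ptgr1 at 1.06, Ptges2 at 0.837, Ptger4 at 0.0515 and Ptger2 at 0.0247 RPM per exon kb. There the intervals of Ptges and Ptgr1, of Ptgr1 and Ptges2, and of Ptger4 and Ptger2 overlapped. In the WT host, Ptgs1 was followed by Ptges at 1.94, Ptges2 at 1.80, Ptger4 at 0.946, Ptgr1 at 0.718 and Ptger2 at 0.0665 RPM per exon kb. There the intervals of Ptgs1, Ptges and Ptges2 overlapped, as did those of Ptger4 and Ptgr1.

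Other prostanoid receptors were listed for 4 of 8 genes, and their 3 members with 100 or more reads split. Of these 3, 1 was 2-fold higher, 1 was 2-fold lower and 1 lay between. Ptgfr and Ptger1 had 100 to under 1000 reads, where 17.5% of all genes were 2-fold higher and 23.4% 2-fold lower. Ptgfr, which encodes the receptor for prostaglandin F2-alpha, was 4.74-fold lower in the KO host, with 81 reads in the KO host and 428 reads in the WT host (95% counting interval 3.73 to 6.09). Ptger1, which encodes EP1, was at 236 reads in the KO host and 2.55 reads in the WT host (ratio 103, 95% counting interval 29.6 to 428). Its recovered reads were not whole, so the value of Ptger1 is uncertain. Ptgfrn, which encodes a partner protein of the F2-alpha receptor, had 9115 reads in the KO host and 12396 reads in the WT host, a ratio of 0.820.

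Fibroblast genes and pericyte genes had medians below 0 beside Ptger4 and Ptgfr, while endothelial genes split. Over all genes with 100 or more reads, 8.4% were 2-fold higher and 11.3% were 2-fold lower. From 100 to under 1000 reads, where all 4 endothelial genes counted below lie, these shares were 17.5% and 23.4%. Of 12 fibroblast genes 10 were listed, 4 of the 7 with 100 or more reads were 2-fold lower and 0 were higher, with a median log2 ratio of -1.26, and the sum was 858 RPM in the KO host and 2135 RPM in the WT host. Col1a1, a chain of type I collagen, had 2059 reads in the KO host and 16111 reads in the WT host. Col3a1, the chain of type III collagen, had 11076 reads in the KO host and 29627 reads in the WT host. The other 3 of the 7, Pdgfra, Col1a2 and Serpinf1, named after their values were seen, had log2 ratios of -0.05, -0.62 and -0.59. Of 11 pericyte and smooth muscle genes 7 were listed, 3 of 4 were 2-fold lower, with a median log2 ratio of -1.75, and the sum was 96.8 RPM in the KO host and 428 RPM in the WT host. Pdgfrb, a receptor of mural cells, was 4.88-fold lower and Notch3 4.53-fold lower, and Cspg4 was listed at 0 in the KO host. Abcc9, named after its value was seen, went the other way, with 55.7 reads in the KO host and 1 read in the WT host. Of 14 endothelial genes 5 were listed, 1 of 4 was 2-fold higher and 2 were 2-fold lower, with a sum of 15.3 RPM in the KO host and 22.3 RPM in the WT host. Plvap was 5.38-fold lower, and Pecam1 had 128 reads in the KO host and 129 reads in the WT host (RPM ratio 1.11). Cdh5, the cadherin of endothelial junctions, named after its value was seen, had 146 reads in the KO host and 1 read in the WT host. Epithelial genes, 8 of 12 listed, summed to 463 RPM in the KO host and 310 RPM in the WT host. All 7 of them with 100 or more reads were above 0 and 3 were 2-fold higher. Elf5 was listed at 0 in the KO host, Krt8 had a ratio of 1.42 and Esr1 1.26. Whether the RNA of these marker genes came from host cells or from the injected cells cannot be told apart in these libraries. The part of these cell types in the receptor differences was not tested.

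Genes that supply and load arachidonate act upstream of Pla2g4a. Of 10 genes for arachidonate synthesis and membrane loading 9 were measured, 0 were 2-fold higher and 0 were 2-fold lower, with a median log2 ratio of 0.19. Of these 9, 8 had 1000 to under 10000 reads, where 3.03% of all genes were 2-fold higher and 4.58% 2-fold lower, so 0 of 9 is near the background. Acsl4, the ligase that prefers arachidonate, had 11714 reads in the KO host and 7539 reads in the WT host (ratio 1.73, 95% counting interval 1.68 to 1.78). Elovl5, a fatty acid elongase, had a ratio of 1.34.

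The phospholipase and lipase list had 15 of 23 genes listed and 13 with 100 or more reads, of which 1 was 2-fold higher and 3 were 2-fold lower, with a median log2 ratio of -0.37. Over all genes with 100 or more reads the shares were 8.4% and 11.3%. From 100 to under 1000 reads, where Daglb, Faah and Pla2g4b lie, they were 17.5% and 23.4%. Dagla, with 1040 reads over both libraries, lies in the next range, where 4.58% of all genes were 2-fold lower. Dagla and Daglb, the diacylglycerol lipases that make the endocannabinoid 2-arachidonoylglycerol, were 3.07-fold and 2.85-fold lower. Daglb overlaps Rac1 on the other strand and its reads were not whole, so its value is uncertain. Dagla had 235 reads in the KO host and 805 reads in the WT host. Faah, which hydrolyses the endocannabinoid anandamide, was at 144 reads in the KO host and 2 reads in the WT host (ratio 80.3, 95% counting interval 21.8 to 669). Pla2g4b, a relative of Pla2g4a, was at 1 read in the KO host and 104 reads in the WT host (ratio 0.0107, 95% counting interval 0.000269 to 0.0611). GENCODE M21 places another gene over Pla2g4b on the same strand and its reads were not whole, so its value is uncertain. Anxa1, an inhibitor of phospholipase A2, had 19583 reads in the KO host and 18896 reads in the WT host, and Plaa, an activator, had a ratio of 1.11.

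The synthases of other prostanoids were few in the table. Of 13 genes 6 were listed and 4 had 100 or more reads, all 4 above 0 and 2 of them 2-fold higher, with a median log2 ratio of 1.21. Of these 4, 3 had 100 to under 1000 reads, where 17.5% of all genes were 2-fold higher. Hpgds, which makes prostaglandin D2 in haematopoietic cells, had 195 reads in the KO host and 33.5 reads in the WT host (ratio 6.49, 95% counting interval 4.43 to 9.50). Its recovered reads were not whole, so this value is uncertain. Cbr1, a carbonyl reductase that can convert PGE2 to prostaglandin F2-alpha, had 136 reads in the KO host and 56 reads in the WT host (ratio 2.71). Akr1b3 and Akr1b8, aldo-keto reductases, had ratios of 1.18 and 1.96. Ptgis, the prostacyclin synthase, chosen after its value was seen, was listed at 0 in the WT host.

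Of 6 genes for transport and other breakdown steps 5 were measured, and 0 were 2-fold higher or lower, with a median log2 ratio of 0.12. Slco2a1, the carrier that takes prostaglandins into cells for breakdown, was abundant. It had 10561 reads in the KO host and 7850 reads in the WT host (log2 ratio 0.59, with a 95% counting interval of the ratio from 1.46 to 1.54). Zadh2, which encodes prostaglandin reductase 3, had 3228 reads in the KO host and 3317 reads in the WT host (RPM ratio 1.09).

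**Figure D4:**
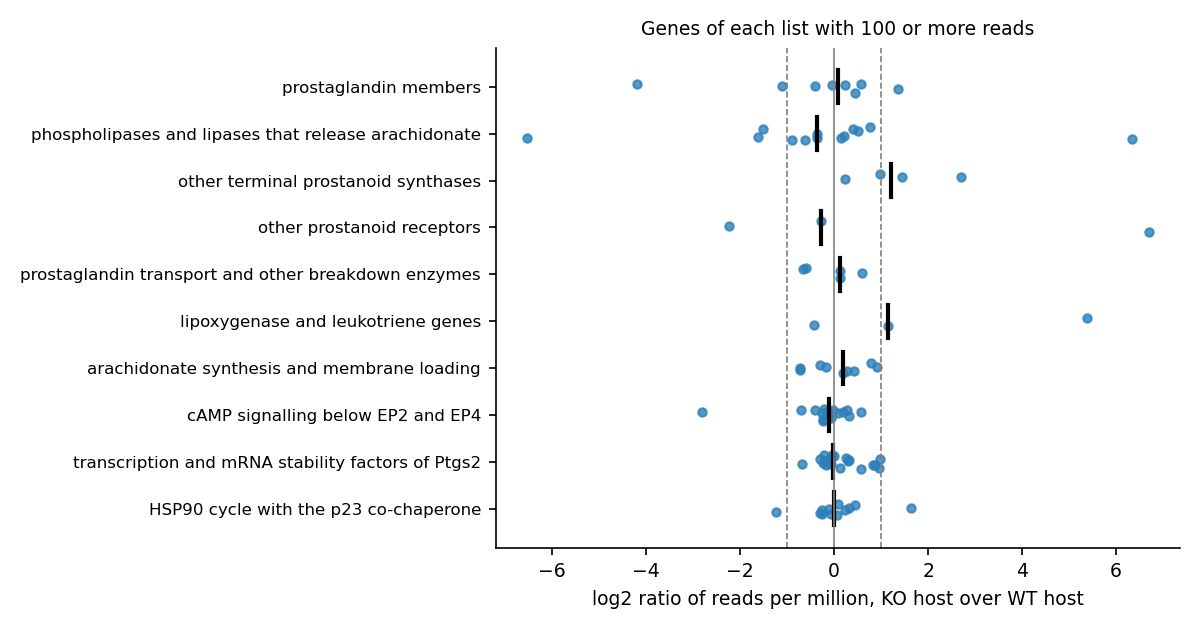
Log2 ratio of RPM, KO host over WT host, for each gene with 100 or more reads in the prostaglandin set and in 9 lists of related genes, with a black bar at each list's median and dashed lines at 2-fold. The factors acting on Ptgs2 lie within 2-fold, while points beyond 4 in size on this axis belong to genes with 8 reads or fewer in 1 library.

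Genes below the EP2 and EP4 receptors, and those that act on Ptgs2 and its RNA, had counts near the background for their depth. Of 20 genes for cyclic AMP signalling 18 had 100 or more reads, 0 were 2-fold higher and 1 was 2-fold lower, with a median log2 ratio of -0.10. Of these 18, 7 had 100 to under 1000 reads, where 17.5% of all genes were 2-fold higher and 23.4% 2-fold lower, and 11.3% were 2-fold lower at any depth of 100 reads or more. The gene that was 2-fold lower was Pde4d, a phosphodiesterase that breaks down cyclic AMP, with 29 reads in the KO host and 228 reads in the WT host (7.05-fold lower, 95% counting interval 4.78 to 10.8). Prkar1a and Prkacb, subunits of protein kinase A, had ratios of 0.952 and 0.946. Of 20 transcription and mRNA stability factors, 0 were 2-fold higher and 0 were 2-fold lower, with a median log2 ratio of -0.02. All 20 had 1000 or more reads, 10 of them under 10000, where 3.03% of all genes were 2-fold higher and 4.58% 2-fold lower. Zfp36, whose protein binds AU-rich elements such as the Ptgs2 window printed above, had 33813 reads in the KO host and 30599 reads in the WT host (ratio 1.23).

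The added constant decides what the low genes show. On the log2 scale the difference of Ptger4 was -0.04 with 5 added to FPKM, -0.21 as deposited, -1.29 with 0.1 added and -4.20 with nothing added. For Ptgs1 the same 4 values were 0.14, 0.50, 1.15 and 1.35, and for Ptges2 they were -0.13, -0.43, -0.95 and -1.10. Ptgs2 stayed between 0.43 and 0.44, and Ptges3 between 0.17 and 0.23.

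**Figure D5:**
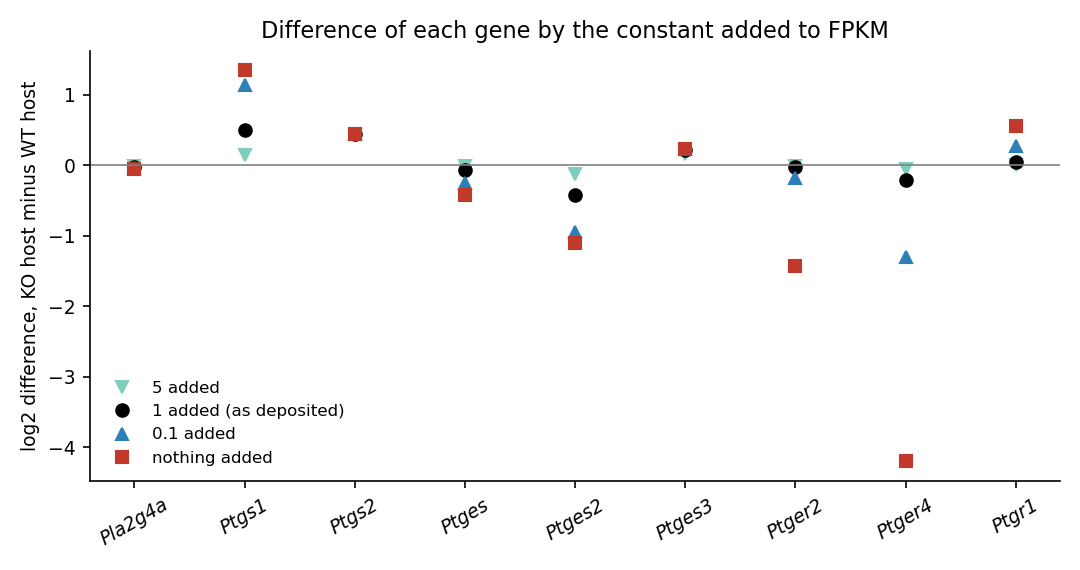
Log2 difference of each of the 9 genes, KO host minus WT host, with 5, 1 or 0.1 added to FPKM or with nothing added. The markers of Ptgs2, Ptges3 and Pla2g4a nearly coincide, while those of Ptger4 run from -0.04 to -4.20.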

How the data were processed

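RNA of CD45-negative sorted tumour cells was sequenced after ribosomal RNA removal, with 1 library per host genotype, per the labels' protocols. STAR 2.7.8a, Partek and mm39 are named without roles in the submitters' processing notes. The authors deposited log2 values, log2(FPKM + 1) by the name of the table, for 12707 genes. The deposited FPKM values use the gene span from start to stop as length (100% of genes).

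Reads were recovered as whole multiples of 1 step per library. Of values under 1000 reads, 83.4% in the KO host and 84.9% in the WT host were whole within 0.1 read. The step search was tested on simulated data with 200 changed genes. A gene under 0.5 read in a library, a minimum set after the values were seen, got no ratio, which left out 166 genes with 100 or more reads. Intervals are exact conditional binomial (Clopper-Pearson) or Poisson, at 95%, and cover counting error only, since copies made by PCR cannot be told from separate molecules.

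The members and lists were chosen with earlier results of these data known. The text names the members, Mtdh, each related gene past the 2-fold rule, and the 2 genes of each list with the most reads. Cspg4 and Elf5 are named for having no reads in the KO host, so after their values were seen. Further genes outside this rule are marked as named after their values were seen, or are named for an overlap. No gene is named for a likeness to a member, since 2 libraries give 1 difference per gene. Alternatives were other constants (0.1 and 5), filters and scalings, among them TMM (trimmed mean of M values). Python 3.11.15, numpy 2.4.6, pandas 2.3.3, scipy 1.17.1 and matplotlib 3.10.9 were used. Promoters came from RefSeq, where all 10 genes matched, and exon lengths and transcripts from GENCODE M21. One gene is not reported here.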

Additional observations from a re-analysis of the deposited data

How the results depend on the processing

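No paired analysis was possible because each group has 1 library. For the same reason no library could be left out, and counting intervals do not measure the spread between animals. Another added constant, or none, cannot change a sign, so only TMM scaling and subtraction of the median difference could. Of 45 alternative values for the 9 genes, 20 lay outside the counting interval of the deposited difference. Of the same 45, 42 had the sign of the deposited difference. The others were Pla2g4a at 0.002 with TMM scaling and 0.009 after the median difference was subtracted, and Ptger2 at 0.009 after that subtraction, against -0.02 for both as deposited. The counts over all genes by the deposited rule were 140 higher and 160 lower. They were 285 and 332 with 0.1 added, 41 and 30 with 5 added, and 39 and 28 when the mean had to reach 3. With whole reads only, 90 were higher. By reads the counts were 895 higher and 1204 lower, and 188 and 259 with 1000 or more reads. The median difference of the prostaglandin genes was 0.33 over the 2 past the level filter, -0.020 over all 9 without it, 0.090 on the read scale over 8, and 0.38 with TMM scaling. These shifts follow from which genes pass the filter and from the constant or scaling itself. Depth limits Ptger2, Ptger4 and Ptgr1 most.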

Other observations

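Leukotriene genes, which use the same arachidonate through lipoxygenases, were mostly near the limit of the table. Of 24 genes 12 were listed, and 3 had 100 or more reads, of which 2 were 2-fold higher and 0 were 2-fold lower. The 2 had 100 to under 1000 reads, where 17.5% of all genes were 2-fold higher and 23.4% 2-fold lower. Of the 12, 5 were listed at 0 in the WT host library and none in the KO host library. Over all 12707 genes, 511 were listed at 0 in the WT host library and 413 in the KO host library. Lta4h, which makes leukotriene B4, had 1202 reads in the KO host and 1812 reads in the WT host (ratio 0.740, 95% counting interval 0.687 to 0.796). Mgst3, a microsomal glutathione transferase, had 363 reads in the KO host and 182 reads in the WT host (ratio 2.22). Dpep2, a dipeptidase that acts on leukotriene D4, had 150 reads in the KO host and 4 reads in the WT host (ratio 41.8, 95% counting interval 15.99 to 155). Dus2 overlaps it on the other strand, with 86.1 reads in the KO host and 231 in the WT host. GENCODE M21 also places another protein-coding entry named Dpep2 over it on the same strand, so the value of Dpep2 is uncertain.

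The HSP90 cycle, in which p23 takes part, was level by its median. Of 12 genes 1 was 2-fold higher, 1 was 2-fold lower and 10 lay between, with a median log2 ratio of -0.004. Both genes past 2-fold were among the 3 with 100 to under 1000 reads. In that range 17.5% of all genes were 2-fold higher and 23.4% 2-fold lower. The 2 genes with the most reads were Hspa8, with a ratio of 1.06, and Hsp90aa1, with a ratio of 1.18. Aarsd1 had 202 reads in the KO host and 72 reads in the WT host (ratio 3.13). GENCODE M21 places another protein-coding gene over Aarsd1 on the same strand, so its value is uncertain. Ppp5c, a phosphatase that binds HSP90, had 164 reads in the KO host and 429 reads in the WT host (2.35-fold lower).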
